A study of Mus musculus with 13 samples.

Results

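Hox genes encode homeodomain transcription factors, and their combined expression marks position along the body and along the limb. They were described here in RNA sequencing libraries of mouse skeletal muscle, as a record of the muscle position that each library came from. The members were all protein coding genes with a symbol of the form Hoxa, Hoxb, Hoxc or Hoxd followed by a paralogue number, 39 of the 49315 rows of the deposited count table. Of these, 30 passed the filter on low counts, among 16496 genes that did.

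The 13 libraries came from mice that were miR-181a2b2flox/flox (flox, titled WT in the labels) or miR-181a2b2-/- (KO, described as systemic), and the diet was labelled either CHOW or HFSC. What HFSC stands for is not spelled out. On chow there were 3 libraries of each genotype, and on HFSC 4 of flox and 3 of KO, with no age, sex or transgene given. The series text also names hindlimb ischemia, but no label gives the limb, the muscle or the time for a sample. The extraction text names white adipose tissue while the source label of each library is skeletal muscle.

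Mammalian Hox genes lie in 4 clusters, and the order of genes along a cluster follows the order in which they are used from head to tail and from shoulder to digit. Low paralogue numbers mark anterior and proximal levels. The genes of groups 9 to 13 pattern the limb, with group 13 in the hand and foot. Adult muscle fibres, connective tissue cells and satellite cells keep part of this pattern, so that muscles of different origin differ in their Hox transcripts.

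On build GRCm38 the Hoxa cluster lies on chromosome 6 (52155590 to 52260880), Hoxb on chromosome 11 (96194316 to 96368256), Hoxc on chromosome 15 (102921103 to 103036852) and Hoxd on chromosome 2 (74668310 to 74765142). Members passing the filter were 11 of 11 in Hoxa, 8 of 10 in Hoxb, 7 of 9 in Hoxc and 4 of 9 in Hoxd. Hoxb1, Hoxb13, Hoxd1, Hoxd12 and Hoxd13 had no read in any library. That allows up to 3 counts, or 0.0656 to 0.144 CPM by unscaled library totals. CPM are counts of a gene per fixed number of reads in its library, elsewhere with library sizes scaled by edgeR's TMM factors. Hoxc12, Hoxc13, Hoxd3 and Hoxd11 had 6, 5, 62 and 24 reads in all 13 libraries together. Exons of other genes overlap 62.8% of Hoxd3 and 52.3% of Hoxd4, and how reads there were assigned is not known.

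The locus deleted in KO mice encodes miR-181a and miR-181b, whose mature 5-prime arms are shown because matches to their seed were searched in the members. RefSeq lists the same mature sequences at Mir181a-1 and Mir181b-1 on chromosome 1, a locus that the genotype label does not name. Capitals mark the seed, bases 2 to 8, which both share, and the sequences are from RefSeq (GRCm38.p6).
miR-181a-5p: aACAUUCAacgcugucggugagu
miR-181b-5p: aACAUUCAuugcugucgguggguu
The match to this seed, TGAATGT, was found in the longest annotated 3′ UTR of 4 of the 39 Hox genes (10.3%), against 16.4% of all 20890 genes with an annotated 3′ UTR. Hoxa11, a described target of miR-181 in differentiating myoblasts, was among them. Sites in 3 of them (GENCODE M21, GRCm38) follow from 5′ to 3′ with up to 11 bases on each side and the match in capitals, extended by an A where an 8-base site is present.
Hoxa11 (chr6:52242160-52242167, minus strand): gctaaaatattTGAATGTAtgcttcataca
Hoxb4 (chr11:96321327-96321333, plus strand): taggttacaaaTGAATGTgaaattaggaa
Hoxb5 (chr11:96305423-96305429, plus strand): gccagtgtttcTGAATGTcctcgtgtctg
None of these 3 genes was called higher in KO libraries on either diet by edgeR's test, whereas DESeq2 called Hoxb5 on HFSC. In chow KO against chow flox the log2 fold changes were 0.23 ± 0.25 (SE) for Hoxa11 (adjusted p = 0.53), -0.65 ± 0.49 for Hoxb4 (adjusted p = 0.36) and -0.73 ± 0.28 for Hoxb5 (adjusted p = 0.096). On HFSC they were -0.13 ± 0.24 (adjusted p = 0.90), 0.30 ± 0.45 (adjusted p = 0.88) and 1.36 ± 0.27 (adjusted p = 0.13). Hoxb5 on HFSC had 0.788, 1.31 and 1.04 CPM in KO and 0.304 to 0.465 CPM in flox, with no overlap.

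The clusters themselves hold miRNA genes, and a seed that many members share was that of miR-196, encoded next to Hoxa9, Hoxb9 and Hoxc10. Its sequence and a pair of the 4 matches in Hoxa7 show this shared feature.
miR-196a-5p: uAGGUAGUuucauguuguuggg
Hoxa7 (chr6:52215400-52215407, minus strand): acagccaaaatACTACCTAgcacaggcctc
Hoxa7 (chr6:52215231-52215238, minus strand): ccatgatcaatACTACCTActactagccct
A match to ACTACCT was present in 9 of 39 Hox 3′ UTRs (23.1%), among them Hoxa4, Hoxa5, Hoxa7, Hoxa9, Hoxb1, Hoxb6, Hoxb7 and Hoxc8, against 6.1% of all genes with a 3′ UTR. For the miR-10 seed match, ACAGGGT, the shares were 10.3% and 12.5%. Reads on the miRNA genes themselves were few, with 0 on Mir196b, 1 on Mir196a-1, 8 on Mir196a-2, 14 on Mir10a and 9 on Mir10b over all 13 libraries, which were polyA selected.

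Before the comparisons, a difference among the libraries is described. Chow flox replicate 4 stood apart from chow flox replicates 2 and 3 and beside the chow KO libraries. The summed CPM of 15 fibroblast and matrix genes was 4152 and 7240 in chow flox replicates 2 and 3, 1464 in replicate 4, 476.6 to 739.2 in chow KO and 3012 to 4939 on HFSC. Summed macrophage markers were 185 and 336.5, then 59.3, then 23.9 to 39.4, and 118.8 to 169.3 on HFSC in the same order. Slow fibre genes summed to 7092 to 10460 CPM in the chow libraries and 862 to 2176 CPM in the HFSC libraries. Fast fibre genes summed to 81830 to 195700 CPM and adipocyte markers to 178.3 to 670 CPM, and the 5 skin keratinocyte markers to 1.74 to 3.32 CPM. Of these, Krt10 was read in each library at 1.67 to 3.23 CPM, while Krt1, Krt5, Krt14 and Lor were at 0 in 11, 9, 9 and 4 of 13 libraries. In bulk tissue, fewer cells of a type and less RNA per cell cannot be told apart, and the part of these differences in the Hox results was not tested.

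To ask which position the libraries record, levels were compared per kilobase of exon. Hoxc10, a gene of the lumbar and hindlimb level, was the highest member at 34.0 ± 10.8 CPM per kb (SD over 13 libraries). Hoxd8 followed with 13.3 ± 3.07, Hoxd9 with 6.67 ± 1.59, Hoxa10 with 5.17 ± 0.598, Hoxc11 with 4.76 ± 0.935 and Hoxc9 with 3.69 ± 0.792 CPM per kb. The levels of Hoxa10 and Hoxc11 differed by less than their spread, and the same held for Hoxa7 (2.58 ± 0.349) and Hoxc4 (2.54 ± 0.447). Hoxa13 was at 1.97 ± 1.01 and Hoxd10 at 1.32 ± 1.06 CPM per kb, the members with the widest spread relative to their level among those above 1 CPM per kb. No Hoxb gene exceeded 0.678 CPM per kb, the mean of Hoxb7.

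**Figure D1:**
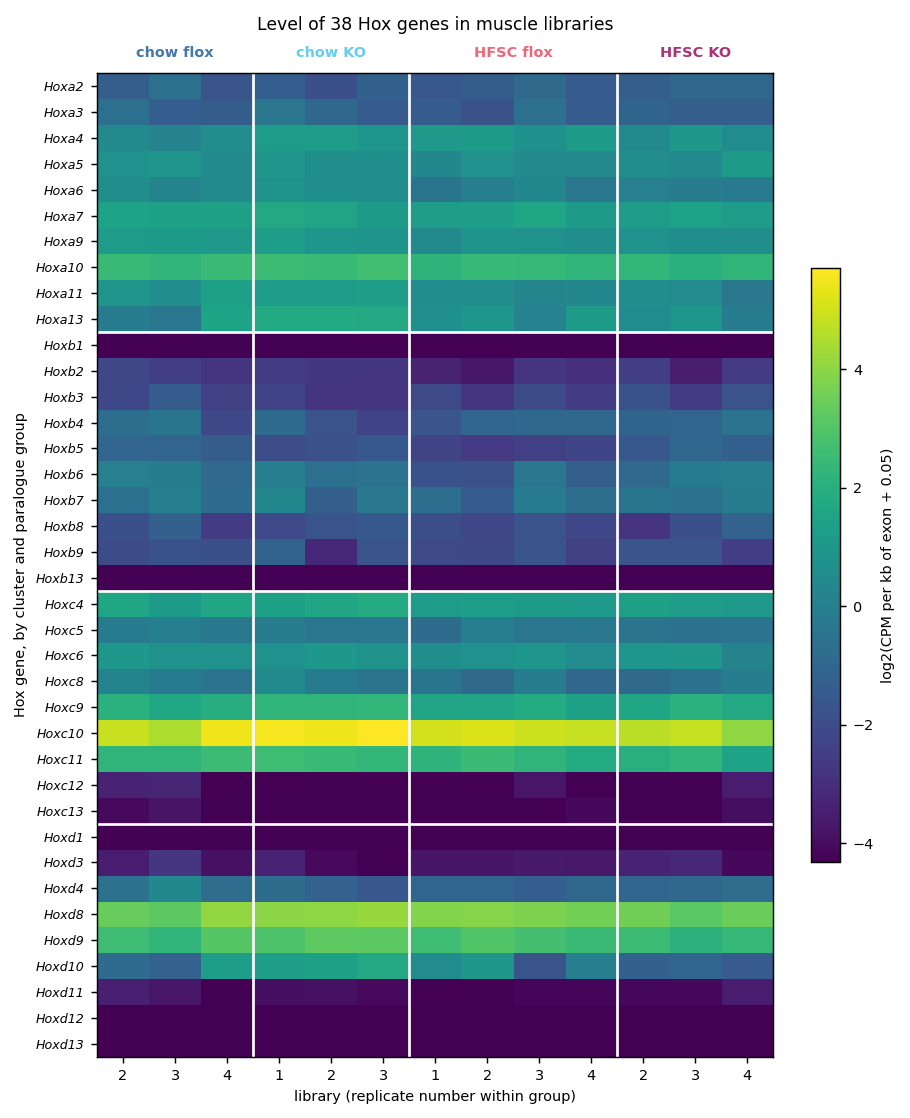
Level of 38 Hox genes (rows, by cluster and paralogue group) in each of the 13 libraries (columns, by group and replicate number), as log2 of CPM per kb of exon plus 0.05. Hoxc10 is the brightest row in each library, Hoxd10 and Hoxa13 change within the chow flox group, and Hoxb1, Hoxb13, Hoxd1, Hoxd12 and Hoxd13 are at the lowest colour throughout.

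By cluster, Hoxc genes held the largest share of the Hox reads, with 37.5% to 49.6% of Hox counts in each library. Hoxa genes held 21.5% to 28.9%, Hoxd genes 20.0% to 28.5% and Hoxb genes 1.73% to 5.64%. Groups 9 to 13, the limb patterning groups, held 55.1% to 68.4%. At the ends of this range Hoxc10 alone gave 892 of their 2383 counts (HFSC KO replicate 4) and 2332 of 4471 (chow KO replicate 3). Within Hoxd, Hoxd8, Hoxd9 and Hoxd10 were read in each library, whereas Hoxd11 reached at most 0.173 CPM and Hoxd12 and Hoxd13 had no read. The Hoxa cluster was read to its end, with Hoxa13 at 1.79 to 8.595 CPM.

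Limb factors outside the clusters were read as a further measure of position. Tbx4, the T-box gene of the hindlimb, had 3.62 to 8.43 CPM in all 13 libraries, and Pitx1, which specifies the hindlimb, had 0.247 to 1.28 CPM. Tbx5, the T-box gene of the forelimb, was at 0 in 9 libraries and reached 0.240 CPM at most, in chow flox replicate 3, with 13 reads in all. Tbx15, a T-box gene of glycolytic muscle fibres, had 205 to 342.1 CPM. The HOTAIR transcript of the Hoxc cluster, Hotair, was read in each library at 0.893 to 3.02 CPM.

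The largest differences between libraries were in genes at the posterior end of the Hoxa and Hoxd clusters. Hoxd10, which patterns the distal hindlimb and its motor neurons (chromosome 2, 74691924 to 74695105), had 0.940, 0.721 and 4.27 CPM in chow flox replicates 2, 3 and 4. In chow KO replicates 1, 2 and 3 it had 4.33, 4.64 and 5.99 CPM. In HFSC flox replicates 1 to 4 it had 2.53, 3.55, 0.467 and 1.71 CPM, and in HFSC KO replicates 2, 3 and 4 0.680, 0.787 and 0.572 CPM. Hoxd10 was thus high in chow flox replicate 4 and throughout chow KO, while the HFSC KO libraries, chow flox replicates 2 and 3 and HFSC flox replicate 3 were below 1 CPM. Counts behind these values ran from 16 to 139 reads.

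Hoxa13, the last gene of the Hoxa cluster and a gene of the hand and foot (chromosome 6, 52257694 to 52260880), followed the same division on chow. It had 2.23, 1.79 and 6.98 CPM in chow flox replicates 2, 3 and 4 and 8.595, 8.55 and 8.10 CPM in chow KO. In HFSC flox replicates 1 to 4 it had 3.98, 4.61, 2.61 and 5.36 CPM, and in HFSC KO replicates 2 to 4 3.54, 4.65 and 2.18 CPM. The HFSC groups overlapped, and both lay below chow KO. Hoxd13, the counterpart at the end of the Hoxd cluster, had no read in any library.

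Hoxc10 (chromosome 15, 102966796 to 102971893) had 55.7, 42.2 and 87.4 CPM in chow flox replicates 2, 3 and 4 and 91.2, 85.3 and 100.5 CPM in chow KO replicates 1, 2 and 3. It had 63.0, 70.4, 58.5 and 54.9 CPM in HFSC flox replicates 1 to 4 and 48.6, 54.0 and 31.9 CPM in HFSC KO replicates 2, 3 and 4. Chow flox replicate 4 again lay with chow KO, and HFSC KO lay below all HFSC flox libraries, by a narrow gap. By edgeR's test KO against flox on HFSC was not called for Hoxc10 (-0.46 ± 0.22, adjusted p = 0.51). Exons of Hoxc5 overlap 8.7% of Hoxc10, and how reads there were assigned is not known.

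Hoxc11, a hindlimb gene beside Hoxc10, had 9.55, 9.56 and 11.97 CPM in chow flox and 12.3, 10.95 and 10.04 CPM in chow KO. It had 9.12, 11.5, 9.45 and 7.16 CPM in HFSC flox and 8.06, 9.90 and 5.61 CPM in HFSC KO. The 4 groups overlapped except that each HFSC KO library was below each chow KO library.

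Hoxd8 and Hoxd9, the neighbours of Hoxd10, were likewise higher in chow KO and chow flox replicate 4 than in chow flox replicates 2 and 3 and HFSC KO, over a smaller range. Hoxd8 had 28.5, 24.6 and 47.2 CPM in chow flox replicates 2, 3 and 4, 42.9, 44.5 and 49.5 in chow KO, 40.1, 40.3, 36.4 and 33.1 in HFSC flox, and 31.7, 24.02 and 30.2 in HFSC KO. Hoxd9 had 12.8, 10.3 and 17.9 CPM in chow flox, 16.03, 19.7 and 19.2 in chow KO, 12.9, 16.7, 14.3 and 12.3 in HFSC flox, and 12.7, 9.28 and 10.97 in HFSC KO. For both genes the chow KO and HFSC KO libraries did not overlap.

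**Figure D2:**
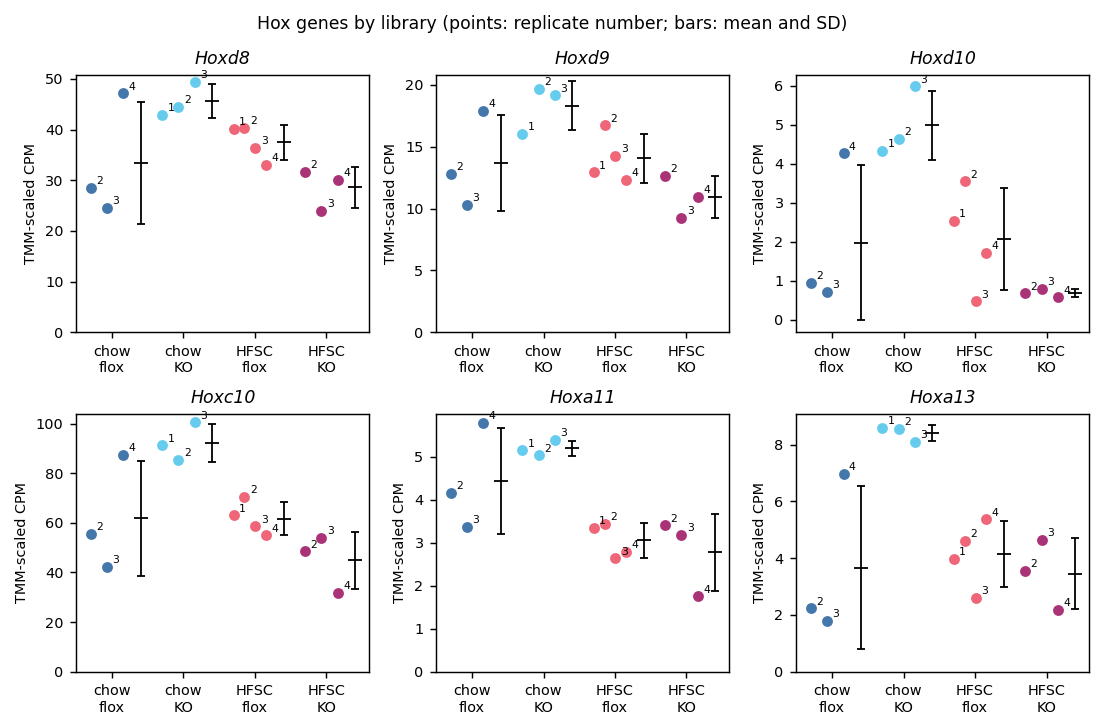
TMM-scaled CPM of Hoxd8, Hoxd9, Hoxd10, Hoxc10, Hoxa11 and Hoxa13 in each library (points, labelled with the replicate number), with the mean and SD of each group beside them. Chow flox replicate 4 lies with the chow KO libraries in these panels, away from chow flox replicates 2 and 3, and the HFSC KO libraries lie below the chow KO libraries.

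The proximal promoters of these 3 genes are shown because the genes lie side by side and were lower together in HFSC KO. Each runs from 250 bases before to 50 after the start annotated by RefSeq (GRCm38.p6), on the plus strand, with any match to CCAAT or its reverse complement ATTGG in capitals.
Hoxd10 (chr2:74691641-74691940): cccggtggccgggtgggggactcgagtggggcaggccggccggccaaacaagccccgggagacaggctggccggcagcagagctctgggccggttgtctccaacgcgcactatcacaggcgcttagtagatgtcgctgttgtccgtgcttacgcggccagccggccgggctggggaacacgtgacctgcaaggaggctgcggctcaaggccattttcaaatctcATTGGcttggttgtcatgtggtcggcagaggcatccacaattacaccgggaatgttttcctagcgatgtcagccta
Hoxd9 (chr2:74697513-74697812): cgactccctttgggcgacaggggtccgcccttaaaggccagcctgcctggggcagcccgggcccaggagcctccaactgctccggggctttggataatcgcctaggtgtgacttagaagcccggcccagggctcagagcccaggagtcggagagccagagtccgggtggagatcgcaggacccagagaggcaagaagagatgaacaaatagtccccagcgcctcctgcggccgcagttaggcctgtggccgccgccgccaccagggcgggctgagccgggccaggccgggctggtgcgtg
Hoxd8 (chr2:74704365-74704664): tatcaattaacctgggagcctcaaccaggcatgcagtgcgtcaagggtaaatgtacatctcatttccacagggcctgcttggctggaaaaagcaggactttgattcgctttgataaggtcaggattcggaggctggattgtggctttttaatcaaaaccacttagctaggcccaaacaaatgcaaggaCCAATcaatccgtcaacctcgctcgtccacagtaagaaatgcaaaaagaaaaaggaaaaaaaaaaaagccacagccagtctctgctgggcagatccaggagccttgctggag
The CCAAT box, bound by NF-Y, was found in Hoxd10 and Hoxd8 but not in this window of Hoxd9. It was present in 15 of 24 Hox promoters (62.5%), from 22 Hox genes in the table, and in 37.4% of all 32851 promoters of that length. None of the 3 held a TATA box (TATAAA, 13.6% of all promoters), a Meis site (TGACAG, 19.2%), a Pbx-Hox site (TGATTNAT, 3.22%) or a TTTATG site of Cdx and posterior Hox factors (11.9%), each searched on both strands. A match describes letters and not a bound site.

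The balance within a cluster does not depend on the scaling of a library, and it was compared as shares of counts. Hoxd10 made up 2.23%, 2.02% and 6.15% of the Hoxd8, Hoxd9 and Hoxd10 counts in chow flox replicates 2, 3 and 4, and 6.85%, 6.74% and 8.03% in chow KO replicates 1, 2 and 3. In HFSC flox replicates 1 to 4 it was 4.56%, 5.85%, 0.914% and 3.63%, and in HFSC KO replicates 2 to 4 1.51%, 2.31% and 1.37%. The exact 95% interval (Clopper-Pearson) of chow flox replicate 4 was 5.09% to 7.36%, above the 1.58% to 3.05% of replicate 2, so these replicates of the same group differed by more than counting error. That of HFSC flox replicate 3, 0.533% to 1.46%, lay below those of the other HFSC flox libraries, whose lowest bound was 2.89%.

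Hoxa13 gave the same order on chow, with 6.04%, 5.40% and 16.2% of the Hoxa9 to Hoxa13 counts in chow flox replicates 2, 3 and 4 and 18.4%, 20.2% and 18.3% in chow KO. On HFSC its share was 8.34% to 16.6% in flox and 7.87% to 15.6% in KO, and the ranges overlapped. Hoxc10 held 59.6%, 56.5% and 70.1% of Hoxc counts in chow flox, 68.6% to 71.9% in chow KO, 64.0% to 68.4% in HFSC flox and 55.1% to 61.8% in HFSC KO. The HFSC groups did not overlap for this share.

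**Figure D3:**
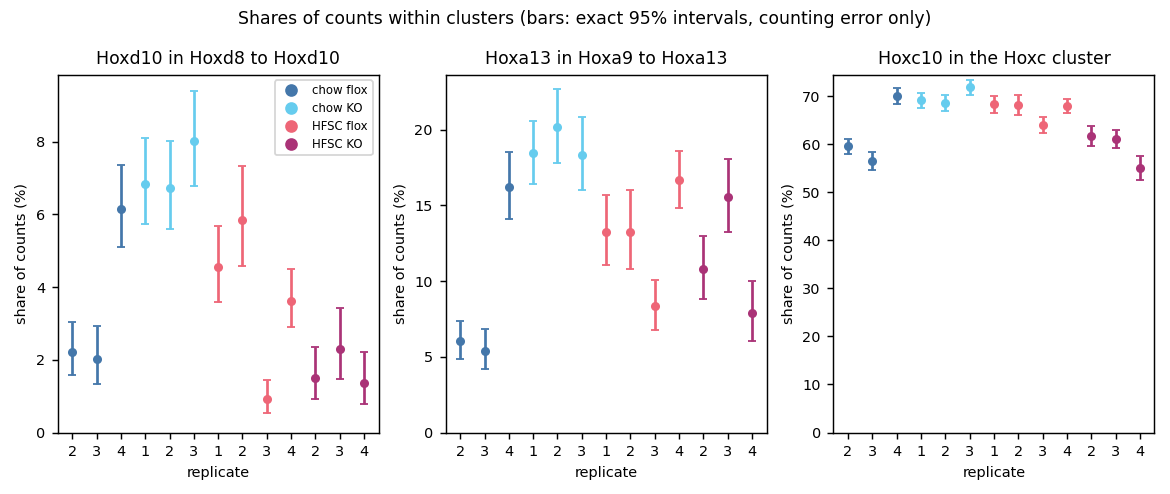
Share of counts within clusters in each library, for Hoxd10 among Hoxd8 to Hoxd10, Hoxa13 among Hoxa9 to Hoxa13 and Hoxc10 among all Hoxc genes, with exact 95% intervals for counting error. Chow flox replicate 4 lies above replicates 2 and 3 in each panel, at 6.15%, 16.2% and 70.1%.

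To ask whether diet altered Hox transcripts in KO mice, HFSC KO was compared with chow KO. Of the 30 tested Hox genes 7 fell and 0 rose (edgeR's quasi-likelihood F test with Benjamini-Hochberg adjustment over 16496 genes). These were Hoxc10, Hoxd10, Hoxd9, Hoxa11, Hoxa10, Hoxd8 and Hoxa6. For comparison, 25.5% of all tested genes were called in this contrast and 10.6% were called lower, so that the share of Hox genes called in either direction (23.3%) was near that of all genes. The median log2 fold change was -0.30 over the Hox genes and 0.02 over all genes.

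Hoxd10 fell the most, by 2.86 ± 0.72 on the log2 scale (adjusted p = 0.015). Hoxc10 fell by 1.04 ± 0.24 (adjusted p = 0.011), Hoxd9 by 0.74 ± 0.19 (adjusted p = 0.019) and Hoxd8 by 0.67 ± 0.20 (adjusted p = 0.030). Hoxa11, which patterns the forearm and shank, fell by 0.90 ± 0.26 (adjusted p = 0.025), Hoxa10, a thigh level gene, by 0.37 ± 0.11 (adjusted p = 0.026) and Hoxa6, a trunk level gene, by 0.79 ± 0.27 (adjusted p = 0.048). Hoxa10 had 19.2, 18.3 and 20.7 CPM in chow KO and 16.4, 13.5 and 15.3 CPM in HFSC KO, beside 17.6, 15.9 and 18.6 in chow flox and 15.2, 17.0, 16.6 and 15.5 in HFSC flox. The KO diets did not overlap, whereas the flox diets did. Hoxa13 had a log2 fold change of -1.28 ± 0.45 that did not pass (adjusted p = 0.051).

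By position, of the 10 tested genes of groups 9 to 13, 5 were lower, with a median of -0.62. Of the 20 of groups 1 to 8, 2 were lower, with a median of -0.10. The 8 tested Hoxb genes had none called and a median of 0.01. Whether the calls of the posterior genes differ from those of the anterior genes was not tested. Matrix genes changed in the opposite direction in this contrast, with 14 of 15 higher, and 10 of 10 slow fibre genes were lower. Their part in the Hox values was not tested.

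**Figure D4:**
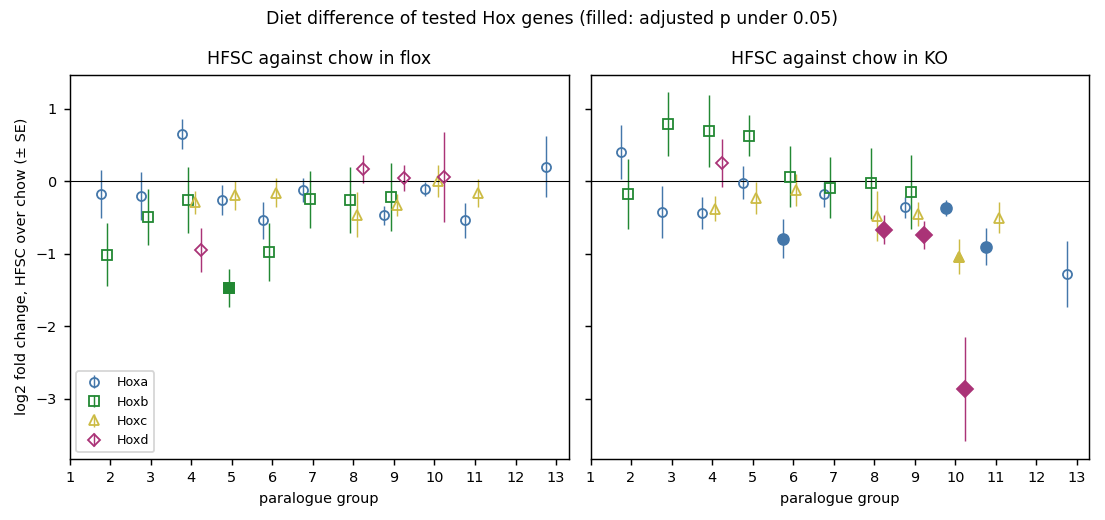
Log2 fold change of HFSC over chow (± SE) for 29 tested Hox genes against paralogue group, in flox (left) and KO (right), coloured by cluster, with filled symbols for adjusted p under 0.05. In KO the 7 filled symbols lie below 0, 5 of them in groups 9 to 13, and in flox the filled symbol is Hoxb5.

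Fewer genes passed when a library was left out, with fold changes of similar size. Without chow KO replicate 3, or without HFSC KO replicate 4, 1 gene was called, Hoxc10. Without chow KO replicate 1 or 2 it was 3. Over these settings Hoxd10 lay between -2.98 and -2.71, Hoxd9 between -0.85 and -0.63 and Hoxa6 between -0.85 and -0.73, and the share of all genes called was 9.05% to 18.2%. Hoxc10 was called in 13 of 13 alternatives, with log2 fold changes from -1.20 to -0.86, and Hoxd10 in 11 of 13. The others were less stable, with Hoxd9 called in 9 of 13, Hoxd8 and Hoxa11 in 8, Hoxa10 in 6 and Hoxa6 in 4. Scaled by library totals, Hoxa10 was at -0.19 (adjusted p = 0.29 by edgeR's test).

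The same diet contrast was made in flox mice. Hoxb5, a gene of the neck and upper trunk level, fell from 1.12 ± 0.147 CPM (SD, n = 3) to 0.398 ± 0.0710 CPM (n = 4), by 1.47 ± 0.26 on the log2 scale (adjusted p = 0.035). It was the 1 Hox gene called, against 0.418% of all tested genes in either direction and 0.303% lower. Its libraries had 1.21, 1.20 and 0.953 CPM on chow and 0.439, 0.304, 0.385 and 0.465 CPM on HFSC, with no overlap. The call was made in 4 of 14 alternatives, with adjusted p from 0.00079 to 0.18, and was lost without any 1 library other than chow flox replicate 4. Without chow flox replicate 4, 3 Hox genes (10%) were called beside 8.81% of all genes, Hoxb5, Hoxd4 and Hoxd8, the last at 0.50 (adjusted p = 0.036).

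For the genes that fell in KO, the flox values on the same contrast were -0.00 ± 0.22 for Hoxc10, 0.06 ± 0.62 for Hoxd10, 0.04 ± 0.18 for Hoxd9 and 0.17 ± 0.19 for Hoxd8. They were -0.54 ± 0.24 for Hoxa11, -0.11 ± 0.10 for Hoxa10 and -0.54 ± 0.25 for Hoxa6. The difference itself, the interaction of genotype and diet, was called for no Hox gene and for 0% of all genes (edgeR). At an unadjusted p under 0.05 there were 9 of 30 Hox genes (30%), near the 29.2% of all genes. DESeq2 called 6 (21.4% of those with an adjusted p, beside 12.9% of all genes) and limma voom 12 (40%, beside 43.0% of all genes). The interaction was -2.93 ± 0.95 for Hoxd10 (adjusted p = 0.092), -1.04 ± 0.33 for Hoxc10 (adjusted p = 0.089) and 2.09 ± 0.39 for Hoxb5 (adjusted p = 0.062). Without chow flox replicate 4 edgeR called 8 of 30 Hox genes (26.7%) and 35.8% of all genes. Hoxd10 was then at -4.13 (adjusted p = 0.0023) and Hoxc10 at -1.38 (adjusted p = 0.0021). With any other library left out, edgeR called no Hox gene for the interaction. Replicate 4 stood apart in Hoxd10 and Hoxc10 themselves, so their values without it are not independent support.

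Averaged over the genotypes, 6 Hox genes were lower on HFSC and 0 higher, where 15.1% of all tested genes were called and 6.17% were lower. They were Hoxa9, Hoxa11, Hoxa6, Hoxc9, Hoxa10 and Hoxc10. Hoxa9, a gene of the proximal limb (chromosome 6, 52223100 to 52231089), had 12.9, 12.1 and 11.6 CPM in chow flox and 13.7, 10.5 and 10.1 CPM in chow KO. On HFSC it had 7.60, 9.83, 9.48 and 8.55 CPM in flox and 9.59, 8.62 and 8.43 CPM in KO. Each of the 6 chow libraries lay above each of the 7 HFSC libraries. The log2 fold change was -0.41 ± 0.10 (adjusted p = 0.016), and the call was made in 17 of 19 alternatives.

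Hoxa11 (chromosome 6, 52242106 to 52245810) had 4.16, 3.37 and 5.79 CPM in chow flox and 5.15, 5.04 and 5.39 CPM in chow KO. It had 3.34, 3.45, 2.64 and 2.79 CPM in HFSC flox and 3.40, 3.18 and 1.75 CPM in HFSC KO. The chow values lay above the HFSC values except in chow flox replicate 3, which fell within them. The averaged log2 fold change was -0.72 ± 0.17 (adjusted p = 0.019), and the call was made in 18 of 19 alternatives. The antisense transcript Hoxa11os covers 35.0% of Hoxa11 exons and fell by 0.67 ± 0.17 (adjusted p = 0.020), and without a known strand setting the reads of the pair cannot be told apart.

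The other 4 averaged calls were less stable. Hoxa6 had 1.34, 0.935 and 1.14 CPM in chow flox, 1.501, 1.36 and 1.29 in chow KO, 0.608, 0.811, 1.07 and 0.633 in HFSC flox and 0.859, 0.787 and 0.750 in HFSC KO. Its chow and HFSC libraries overlapped in flox and not in KO, and its log2 fold change was -0.67 ± 0.18. Hoxc9 was at -0.39 ± 0.11, Hoxa10 at -0.24 ± 0.07 and Hoxc10 at -0.52 ± 0.16. Each of these 4 was called in 6 to 8 of 19 alternatives. Averaged counts were 2 without chow flox replicate 2, any 1 chow KO library, HFSC flox replicate 1 or 4, or HFSC KO replicate 4. Hoxa9 and Hoxa11 remained in each of these. These 2 of 30 (6.67%) stood beside 7.61% to 11.9% of all genes called.

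The genotypes were compared on each diet. In chow KO against chow flox, Hoxa4, an anterior gene of the neck level, rose by 0.74 ± 0.22 on the log2 scale (adjusted p = 0.047). It had 2.08, 1.71 and 2.36 CPM in chow flox and 3.62, 3.64 and 3.02 CPM in chow KO, with no overlap. It was the 1 Hox gene of 30 called, in a contrast that called 11.5% of all tested genes and 1.38% as higher. Scaled by library totals, 0 Hox genes were called higher and 2 lower, Hoxb5 and Hoxd4, with a median log2 fold change of -0.22 over Hox genes and -0.35 over all genes, from 0.11 and -0.01. The call of Hoxa4 was made in 4 of 13 alternatives, and this contrast uses the same chow KO libraries as the diet contrast in KO. For Hoxd10 the log2 fold change was 1.36 ± 0.66 (adjusted p = 0.16) and for Hoxa13 1.22 ± 0.44 (adjusted p = 0.085).

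The count moved with the chow flox libraries used. Without chow flox replicate 4, 8 of 30 Hox genes (26.7%) were called beside 43.4% of all genes, with Hoxd10 at 2.58 (adjusted p = 0.0041), Hoxa13 at 2.06 (adjusted p = 0.00042), Hoxc10 at 0.92 (adjusted p = 0.0029) and Hoxd8 at 0.78 (adjusted p = 0.00077). Without chow flox replicate 2 or 3, or any 1 chow KO library, none was called. Replicate 4 of chow flox stood apart in Hoxd10, Hoxa13, Hoxc10 and Hoxd8 themselves, so their values without it are not independent support. Matrix genes were lower in this contrast, 14 of 15, and macrophage markers, 8 of 8. Their part in the Hox values was not tested.

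On HFSC, 0 of 30 Hox genes were called between KO and flox by edgeR, with 0.0182% of all tested genes called. At an unadjusted p under 0.05 there were 3 (10%), as among all genes (10.4%). DESeq2 called 1 (Hoxb5) and 1.11% of all genes, and limma voom called 0 and 0.2% of all genes. The 3 values were Hoxb5 at 1.36 ± 0.27 (adjusted p = 0.13), Hoxb6 at 0.93 ± 0.40 (adjusted p = 0.45) and Hoxd10 at -1.56 ± 0.68 (adjusted p = 0.45).

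Hoxb6 and Hoxb7, the highest Hoxb genes per kb, were called in no contrast by edgeR, while limma voom called Hoxb6 in 3. Hoxb6 had 1.93, 1.71 and 0.953 CPM in chow flox, 1.81, 1.16 and 1.29 in chow KO, 0.473, 0.456, 1.40 and 0.718 in HFSC flox and 0.967, 1.64 and 1.86 in HFSC KO. Hoxb7 had 0.891, 1.496 and 0.800 CPM in chow flox, 1.81, 0.559 and 1.16 in chow KO, 0.878, 0.507, 1.29 and 0.866 in HFSC flox and 1.07, 0.918 and 1.36 in HFSC KO. All 4 groups overlapped for both. Hoxa7, a trunk level gene, had 8.09, 7.51 and 7.66 CPM in chow flox, 9.38, 8.23 and 6.20 in chow KO, 6.92, 6.74, 8.62 and 6.21 in HFSC flox and 6.44, 7.97 and 6.57 in HFSC KO, and was called in no contrast by any tool run. By edgeR with TMM scaling and all libraries, no other member that passed the filter was called in a contrast. Among these were Hoxa2, Hoxa3, Hoxa5, Hoxb2 to Hoxb4, Hoxb8, Hoxb9, Hoxc4 to Hoxc6, Hoxc8 and Hoxd4.

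Other transcripts of the clusters were read at low levels, with 12 of 46 annotated ones passing the filter. In HFSC KO against chow KO, Hoxd3os1, an antisense transcript whose span (chromosome 2, 74703248 to 74716130) covers Hoxd8, fell by 0.62 ± 0.18 (adjusted p = 0.027) and Hoxa11os fell by 0.79 ± 0.24 (adjusted p = 0.033). Exons of Hoxd3os1 overlap those of Hoxd3 and Hoxd4 but not those of Hoxd8. Hotairm1, at the anterior end of Hoxa, rose by 1.26 ± 0.39 (adjusted p = 0.034), from 0.507 ± 0.114 to 1.23 ± 0.359 CPM (SD, n = 3 each). Averaged over the genotypes Hoxa11os, Hoxd3os1 (-0.43 ± 0.12) and 5730596B20Rik (-0.65 ± 0.19) were lower on HFSC. Hotair was called in no contrast by edgeR.

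Hox proteins bind DNA with cofactors of the TALE class, Pbx, Meis and Pknox. Of 8 tested cofactors 1 rose and 2 fell in HFSC KO against chow KO, beside 25.5% of all genes called. Meis1, a marker of the proximal limb, had 4.80, 5.32 and 5.68 CPM in chow flox, 6.11, 5.67 and 4.91 in chow KO, 4.12, 3.597, 4.04 and 3.74 in HFSC flox and 3.08, 2.59 and 2.61 in HFSC KO. It fell by 1.01 ± 0.15 in KO (adjusted p = 0.0025) and by 0.73 ± 0.10 on average (adjusted p = 0.0017), with each chow library above each HFSC library. Meis2 rose by 1.35 ± 0.33 in KO. On chow, Meis2 (-1.37 ± 0.33) and Meis3 (-1.41 ± 0.35) were lower in KO, 2 of 8 beside 11.5% of all genes called.

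Of 13 tested limb factors, 3 rose and 1 fell in HFSC KO against chow KO, where 25.5% of all genes were called. Emx2, a homeobox gene of the girdle, had 1.63, 2.24 and 1.41 CPM in chow flox, 1.501, 1.72 and 1.29 in chow KO, 0.574 to 0.912 in HFSC flox, and 0.143, 0.229 and 0.214 in HFSC KO. It fell by 2.91 ± 0.33 in KO (adjusted p = 0.00065) and by 1.31 ± 0.25 in flox (adjusted p = 0.049), with no overlap between diets in either genotype. Tbx4 rose by 0.79 ± 0.24 in KO, from 3.62 to 4.32 CPM on chow to 5.47 to 8.06 CPM on HFSC. Tbx2 rose by 1.11 ± 0.29 and Msx1 by 0.98 ± 0.33. On chow, Pitx1 (-1.62 ± 0.45), Tbx18 (-1.66 ± 0.45) and Msx1 (-1.14 ± 0.33) were lower in KO.

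**Figure D5:**
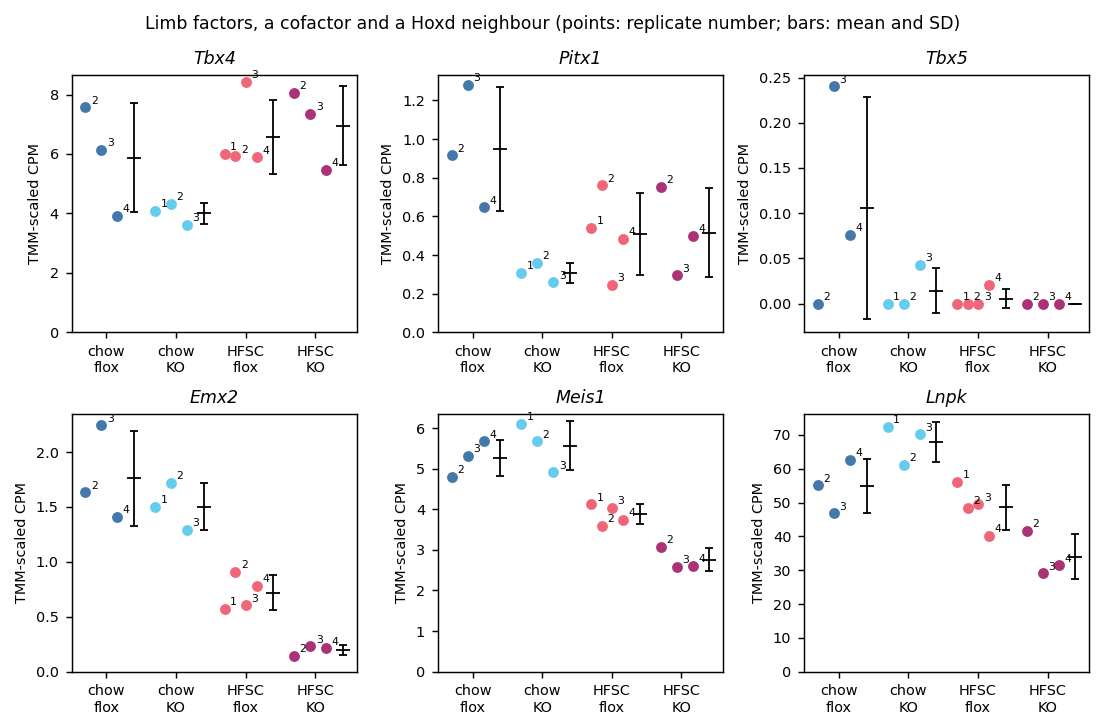
TMM-scaled CPM of the hindlimb genes Tbx4 and Pitx1, the forelimb gene Tbx5, the girdle gene Emx2, the Hox cofactor Meis1 and the Hoxd neighbour Lnpk in each library (points, labelled with the replicate number), with the mean and SD of each group. Tbx5 stays at or below 0.240 CPM, and Emx2 and Meis1 are lower in each HFSC library than in each chow library.

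Genes beside the clusters were read for comparison. Lnpk, which lies outside the Hoxd cluster beyond its posterior end, had 61.2 to 72.5 CPM in chow KO and 29.1 to 41.6 CPM in HFSC KO and fell on HFSC (adjusted p = 0.0029). Its log2 fold change averaged over the genotypes was -0.59 ± 0.11 (adjusted p = 0.0057). In flox its log2 fold change was -0.18 ± 0.15 (adjusted p = 0.66). Of 7 tested neighbours, Atp5g3 was the 1 other called in KO, higher on HFSC, and 2 of 7 again stands beside 25.5% of all genes. Evx2, the homeobox gene beside Hoxd13, had no read.

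Among 21 Polycomb and trithorax genes, whose products hold Hox genes silent or active, 2 rose and 2 fell in HFSC KO against chow KO, with Men1 among the higher and Cbx7 and Bmi1 lower. Of 13 tested retinoic acid genes, whose signal sets the anterior Hox boundary, 2 rose (Aldh1a3 and Aldh1a2) and 2 fell (Rarb and Rxra). Rarb, a retinoic acid receptor gene, had 12.7 to 15.4 CPM in chow KO and 7.93 to 9.88 CPM in HFSC KO, a fall of 0.65 ± 0.17 (adjusted p = 0.018). These counts, 4 of 21 and 4 of 13, stand beside 25.5% called among all genes.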

How the data were processed

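The deposited values are raw counts of reads per Ensembl gene, which the authors made on build GRCm38. Per the submitters' processing notes, the tools were STAR 2.5.2b, featureCounts from Subread 1.5.2 and Trimmomatic 0.36. Not given in the sources used here were the annotation release and the treatment of strand and of multiply aligned reads. Symbols and coordinates are from GENCODE M21 (49056 of 49315 rows matched by Ensembl ID, 259 not). Library totals were 20830943 to 45710227 counts (median 29011060), and intervals and floors cover counting error only.

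All 13 libraries, grouped by the genotype and diet labels, were fitted jointly in edgeR 4.0.16 (R 4.3.3) by group (4 means, no covariates), with TMM scaling (trimmed mean of M values), filterByExpr and robust quasi-likelihood F tests. The Benjamini-Hochberg adjustment ran over all 16496 genes tested, at a threshold of 0.05, and each standard error was the log2 fold change divided by the root of F. The fits were tested on simulated data. The labels do not say that libraries are from separate animals. The p-values therefore reflect spread among samples that may be technical replicates. Levels per kb use the union of annotated exons.

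Values in each library are given for up to 8 called Hox genes with the smallest adjusted p, the 2 highest per kb in each cluster, Hoxa11, Hoxa13, Hoxd13, Hoxc10 and Hoxc11. Hoxa4, Hoxb5, Lnpk and further list members were described because they were called. A few genes of the lists and 1 member, which is counted but not shown, are not reported here. The members and lists were chosen with earlier results of these data known. Seed matches were searched per gene in its longest 3′ UTR, and promoters and miRNAs are from RefSeq (GRCm38.p6). Alternatives were relative log expression factors, library totals, DESeq2 1.42.0, limma 3.58.1 voom with quality weights, no filter, the replicate block, only the groups compared, each library left out, transcript length and CPM per kb.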

Additional observations from a re-analysis of the deposited data

Results flagged for a closer look

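A pair of values stood apart from the other libraries of a group of 4. The share of Hoxc10 in all Hoxc counts was 64.01% in HFSC flox replicate 3, where the other 3 HFSC flox libraries had 67.91% to 68.35%, and the gap was 0.898 of the whole range. That library also had the lowest Hoxd10 level of its group, 0.467 CPM. The summed CPM of the 15 retinoic acid genes was 468.7 in HFSC flox replicate 2, where the others had 388.1 to 394.4, a gap of 0.921 of the range. Both gaps exceeded Dixon's critical value for 4 samples. In all, 55 values were examined in this way, and chance flags about 1 in 20 groups.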

How the results depend on the processing

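No log2 fold change of a called Hox gene changed sign under an alternative, although many calls were lost. The counts of Hox genes called moved as follows. The share of all tested genes called under the same setting stands in brackets. For KO against flox on chow (1 gene, 11.5% of all genes) they were 2 with library totals (18.8%), 3 with DESeq2 (20.5%), 10 with voom (60.0%), and 0 with no filter (4.18%), the replicate block (0%) and only the groups compared (0.0121%). With each library left out they ranged from 0 to 8 (0% to 43.4%). For KO against flox on HFSC (0, 0.0182%) DESeq2 called 1 (1.11%). For HFSC against chow in flox (1, 0.418%) they were 0 with library totals (0.340%), no filter (0.242%), the replicate block (0.309%) and only the groups compared (0.0242%), 2 with DESeq2 (2.41%), 12 with voom (25.3%), and 0 to 3 with each library left out (0.0909% to 8.81%). For HFSC against chow in KO (7, 25.5%) they were 5 with library totals (20.9%) and with no filter (9.74%). They were 9 with relative log expression factors (25.9%) and with only the groups compared (35.0%), 10 with DESeq2 (32.0%) and 12 with voom (43.4%). The replicate block left 4 (Hoxc10, Hoxd8, Hoxd9 and Hoxd10, 14.4%), and there were 1 to 6 with each library left out (9.05% to 18.2%). Averaged over genotypes (6, 15.1%) they were 2 with library totals (9.45%) and with no filter (5.46%), and 13 with voom (35.0%). They were 8 with DESeq2 (21.5%), 0 with the replicate block (9.12%) and 2 to 9 with each library left out (7.61% to 24.6%). For the interaction (0, 0%) they were 6 with DESeq2 (12.9%), 12 with voom (43.0%) and 0 to 8 with each library left out (0% to 35.8%). The cause of these changes was not tested.

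Same-numbered libraries correlated between -0.341 and 0.109 in their deviations from the group means, so the replicate numbers were not taken to pair the samples. Library totals moved the all-gene median (log2) by over 0.1 in 4 contrasts, to -0.35 for KO on chow, 0.21 for diet in KO, -0.16 for diet in flox and 0.37 for the interaction, and the medians of the Hox genes were then -0.22, -0.12, -0.40 and 0.29, so that those of KO on chow (0.11) and of the interaction (-0.05) changed sign. Transcript length in place of exon union raised the mean level of Hoxa9 from 1.83 to 3.17, of Hoxa10 from 5.17 to 6.59 and of Hoxa7 from 2.58 to 3.66 CPM per kb. Summed CPM per kb gave groups 9 to 13 a share of 70.5% in chow KO and 66.4% in HFSC flox, from 67.3% and 63.2% of counts. Depth limits the silent Hoxd and Hoxb genes to at most 0.144 CPM by unscaled library totals.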
